A study of Mus musculus with 10 samples.

Results

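The imprinted growth genes were a set of 10 mouse genes, H19, Meg3, Rian, Cdkn1c, Grb10, Dlk1, Peg3, Mest, Plagl1 and Ndn, chosen by name from the gene count table. They took 10 of its 55486 genes, and each name matched 1 gene. Poly(A) RNA was sequenced from 10 libraries of cells sorted out of 5 collagen gels after 7 days in culture. The gels held normal mammary fibroblasts (NFs), cells of an invasive lobular carcinoma (ILC) line, or both. NFs came from pooled mTmG females of at least 8 weeks of age, which carry a membrane reporter that Cre switches from tdTomato to GFP, and were split by the surface protein CD26 into CD26- and CD26+ NFs. Of the subsets, only the CD26+ NFs had been given Cre, by adenovirus, to turn them green, so virus and subset cannot be told apart. Tumor cells were the lines 13-MCB-17 and 10-SJK-221, both from tumors of engineered females in which WapCre acts in mammary epithelium and deletes Cdh1, among other changes not reported here. Every tumor library therefore carried the engineered changes and no NF library did. CD26- and CD26+ NFs shared gel 1 without tumor cells (1 library each), 13-MCB-17 was alone in gel 2 and 10-SJK-221 in gel 3, and gels 4 and 5 each gave a CD26- NF, a CD26+ NF and a tumor library, with 13-MCB-17 in gel 4 and 10-SJK-221 in gel 5. With NFs alone in 1 gel, and 1 co-culture gel per line, neither culture nor line can be told apart from the gel, and p-values measure the spread between these libraries.

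Imprinted genes are expressed mainly from the copy inherited from 1 parent, and the choice is kept by DNA methylation at an imprinting control region that several neighbouring genes share. Many of them set growth before birth and are turned down in most adult tissues. Of these genes H19, Meg3, Rian, Cdkn1c and Grb10 are expressed from the maternal copy (Grb10 in most tissues) and Dlk1, Peg3, Mest, Plagl1 and Ndn from the paternal copy. The counts do not separate the parental copies, so only the summed level of each gene was measured.

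Meg3, Rian and Dlk1 lie in 1 cluster on chromosome 12 (GRCm38, GENCODE M21), where Dlk1 (chr12:109452823-109463336) comes first, then Meg3 (chr12:109541001-109571726) and Rian (chr12:109603940-109661716), all on the plus strand. H19 (chr7:142575529-142578143) and Cdkn1c (chr7:143458339-143461050) lie on the minus strand in neighbouring clusters at the far end of chromosome 7. The other members stand in clusters of their own: Peg3 at chr7:6703892-6730431, Ndn at chr7:62346569-62350262, Mest at chr6:30723547-30748465, Plagl1 at chr10:13060504-13131694 and Grb10 at chr11:11930508-12038683. Copg2 on the opposite strand covers 23.1% of the exonic bases of Mest, and the gene model Gm44732 covers 30.7% of those of Cdkn1c. The libraries keep strand, but the strand setting used for counting is not given in the sources used here, so reads in those stretches cannot be told apart. Copg2 stood at 40.2 to 51.9 CPM (counts-per-million, a gene's counts scaled to the total of its library) in the NFs and at 120 to 143 CPM in the tumor cells.

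Promoter windows of 300 bases, from 250 before to 50 after the annotated start, were matched in RefSeq (GRCm38.p6) for 8 of the 10 members, in 12 windows. A Meg3 window and that of Dlk1 are shown because these neighbours moved in opposite directions in the NFs. That of Peg3 is shown because it held GGGGCCCC, the letters to which PLAGL1, itself a member, is known to bind. CG pairs, the bases methylated at imprinted control regions, are in capitals.
Meg3, chr12:109540746-109541045, plus strand: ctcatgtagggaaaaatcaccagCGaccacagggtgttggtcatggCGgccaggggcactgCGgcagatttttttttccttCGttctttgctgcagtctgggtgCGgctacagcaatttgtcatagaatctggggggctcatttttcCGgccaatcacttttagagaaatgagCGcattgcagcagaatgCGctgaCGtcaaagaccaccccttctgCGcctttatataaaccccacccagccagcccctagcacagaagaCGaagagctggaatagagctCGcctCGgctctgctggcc
Dlk1, chr12:109452573-109452872, plus strand: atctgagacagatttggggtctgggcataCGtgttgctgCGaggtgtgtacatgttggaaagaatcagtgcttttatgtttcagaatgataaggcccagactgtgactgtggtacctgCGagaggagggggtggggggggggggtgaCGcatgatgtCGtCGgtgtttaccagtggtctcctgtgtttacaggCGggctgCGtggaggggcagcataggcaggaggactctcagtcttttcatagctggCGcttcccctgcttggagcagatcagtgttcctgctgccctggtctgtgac
Peg3, chr7:6730370-6730669, minus strand: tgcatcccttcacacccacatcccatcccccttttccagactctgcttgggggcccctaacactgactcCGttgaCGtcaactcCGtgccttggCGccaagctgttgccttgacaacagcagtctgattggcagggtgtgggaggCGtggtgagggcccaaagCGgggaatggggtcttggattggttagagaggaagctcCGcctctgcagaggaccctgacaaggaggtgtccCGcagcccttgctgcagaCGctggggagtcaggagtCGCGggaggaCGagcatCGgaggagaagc
The Meg3 window shown and the Peg3 window each held 13 CG pairs and the Dlk1 window 9, against a median of 7 over all 32851 windows. Another Meg3 window (chr12:109545148-109545447) held 1, and 5.43% of all windows held fewer. A Grb10 window held the most among the members, with 45, more than 98.1% of all windows, and the Rian window held none. GGGGCCCC, which reads the same on both strands, was in 1 of the 12 member windows and in 1.08% of all windows. A match of letters is no evidence of binding.

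H19, Meg3, Rian and Mest are also hosts of miRNA genes. Mature miRNAs are not captured in poly(A) libraries, so the counts below are those of the host transcripts. The miRNAs of H19 and Mest are shown because these hosts were the only members with more than 5 counts in any tumor library, with the seed (bases 2 to 8) in capitals, from RefSeq (GRCm38.p6). None of the 4 seeds is shared.
mmu-miR-675-5p in H19, chr7:142577112-142577133, minus strand: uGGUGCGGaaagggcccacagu
mmu-miR-675-3p in H19, chr7:142577078-142577099, minus strand: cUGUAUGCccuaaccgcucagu
mmu-miR-335-5p in Mest, chr6:30741314-30741336, plus strand: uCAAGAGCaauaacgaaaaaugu
mmu-miR-335-3p in Mest, chr6:30741354-30741375, plus strand: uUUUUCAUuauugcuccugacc
Rian held 3 miRNA genes and Meg3 2.

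Libraries held 14142334 to 18408940 counts, so 3 counts, taken as the floor, were worth 0.163 to 0.212 CPM. All 10 fibroblast markers of the list used were detected in every NF group, and their summed level was 21700 to 75820 CPM in NFs against 176 to 650 CPM in tumor cells, mostly Col5a1. The sum over 10 epithelial markers was 3391 to 4631 CPM in tumor cells. It was 0.559 and 0.912 CPM in NFs alone, with Epcam, Krt18, Cldn4, Cldn7, Esrp1 and Grhl2 at 0 in both, and 106 to 281 CPM in co-cultured NFs. In these bulk libraries fewer cells of a type and less RNA per cell cannot be told apart.

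The first comparison asked which members belong to the fibroblasts and which to the tumor cells. Of the 10 members, 9 were expressed in NFs and were at or near 0 in tumor cells grown alone, and Mest was higher in the tumor cells. In edgeR's quasi-likelihood test 9 members were higher in NFs alone (n = 2) and 1 was lower. Of the 17048 genes tested 28.4% were higher and 27.1% lower (55.5% in either direction). Each subset had 1 library alone, so the spread in this test came from the tumor and co-cultured groups, whose libraries also differ in tumor line. All 5 maternally expressed members were higher in NFs, as were 4 of the 5 paternally expressed ones. The fitted median log2 difference of the 10 members was 12.4, or 8.47 with genes at 0 in the tumor cells set at the bounds given below, and that of all genes was 0.02.

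Meg3, a long noncoding RNA, stood at 389 CPM in CD26- and 440 CPM in CD26+ NFs alone and had no count in either tumor library grown alone. Grb10, an adaptor that restrains signalling from insulin and IGF receptors, stood at 442 and 333 CPM in the same NFs and also had no count in the tumor cells. H19, a long noncoding RNA known to limit growth, stood at 267 and 465 CPM and was likewise without a count there. With a floor of 3 counts per library, Meg3 was at least 2172-fold, Grb10 at least 2030-fold and H19 at least 1916-fold higher in NFs alone.

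The bounds were smaller for members expressed less, since the floor was the same. Ndn, a MAGE family protein that restrains proliferation in neurons, stood at 55.9 CPM in CD26- and 83.0 CPM in CD26+ NFs alone, at least 364-fold over the tumor cells. Plagl1, a zinc finger transcription factor, stood at 33.3 and 48.4 CPM, at least 214-fold higher. Peg3, another zinc finger protein, stood at 38.4 and 39.6 CPM, at least 204-fold higher. For Cdkn1c, an inhibitor of cyclin-dependent kinases, the NF values were 6.64 and 16.2 CPM, at least 59.9-fold higher. In none of the 4 tumor libraries, alone or co-cultured, did Cdkn1c, Peg3, Plagl1 or Ndn have a single count.

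Rian and Dlk1 had isolated counts in the tumor cells. Rian, a long noncoding RNA that carries small nucleolar RNAs and miRNAs, stood at 245 CPM in CD26- and 230 CPM in CD26+ NFs alone, with 2 counts in 13-MCB-17 and none in 10-SJK-221. The ratio of its pooled counts per total was 4059 (95% counting interval 1123 to 33522). Dlk1, a transmembrane protein that holds back fat cell differentiation, stood at 10.5 and 9.62 CPM, with 1 count in 10-SJK-221 grown alone and none in 13-MCB-17, a ratio of 344 (61.3 to 13633). Both genes were under the floor of 3 counts there, so these ratios cannot be ranked against the bounds above. The intervals cover counting error only.

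Mest, which encodes a hydrolase-like protein and marks growing mesenchyme and fat, stood apart from the other 9. In tumor cells grown alone it reached 45.1 CPM in 13-MCB-17 and 83.5 CPM in 10-SJK-221, against 9.31 CPM in CD26- and 35.7 CPM in CD26+ NFs alone. Both tumor libraries were above both NF libraries, with a log2 difference (NFs minus tumor cells) of -1.68 (SE 0.427, adjusted p = 0.0102, edgeR). The CD26- library carried the call: without it the log2 difference was -0.76 (adjusted p = 0.252). Copg2 was also lower in NFs, by a log2 difference of -1.44 (SE 0.137, adjusted p = 4.62e-05).

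**Figure D1:**
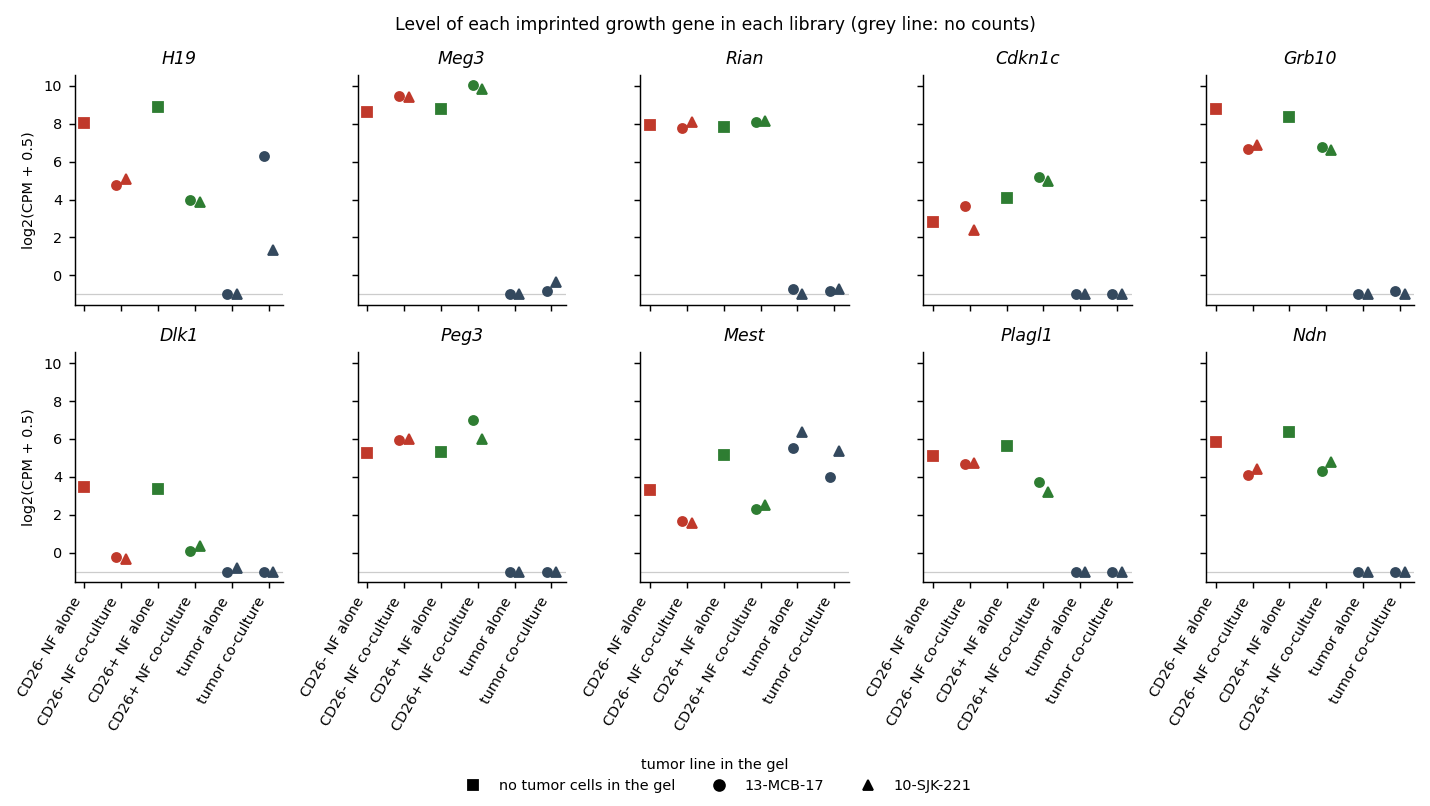
Level of each of the 10 members in each of the 10 libraries, as log2(CPM + 0.5), by group (red CD26- NFs, green CD26+ NFs, dark blue tumor cells; the symbol gives the tumor line in the gel, squares none). The grey line is 0 counts, on or near which the tumor cells sit except for Mest in all 4 tumor libraries and H19 in co-culture (79.1 CPM in gel 4, 2.00 CPM in gel 5).

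Within the gels that NFs and tumor cells shared, 8 members were higher in NFs (n = 4) than in tumor cells (n = 2), 1 was lower and 1 did not pass, where 27.7% of all genes tested were higher and 24.2% lower (51.8% in either direction). The fitted median log2 difference of the members was 11.3, or 6.94 with genes at their bounds, against 0.06 for all genes. Peg3 was at least 461-fold, Ndn at least 123-fold, Cdkn1c at least 122-fold and Plagl1 at least 106-fold higher in the NFs. Meg3 had 1 count in the tumor library of gel 4 and 5 in that of gel 5, against 691.5 to 1055 CPM in the NFs, a ratio of 4912 (2257 to 13385). Rian had 1 and 2 counts, a ratio of 3077 (1053 to 14923), and Grb10 had 1 and 0, a ratio of 3732 (670 to 147420). Rian and Grb10 were under the floor there, so their ratios cannot be ranked against the bounds. Dlk1 was so low in co-cultured NFs (0.288 to 0.778 CPM) that its bound was 2.93-fold, and its call was lost without gel 4 (adjusted p = 0.0825) or gel 5 (0.0954).

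Mest was again higher in the tumor cells, at 15.7 CPM in gel 4 and 40.9 CPM in gel 5 against 2.42 to 5.16 CPM in the 4 NF libraries. The groups did not overlap (log2 difference -2.80, SE 0.367, adjusted p = 0.000332), and without gel 5 the adjusted p was 0.0557. H19 was the member without a call. In gel 4 its CPM value was 26.8 for CD26- NFs, 15.2 for CD26+ NFs and 79.1 for the tumor cells. In gel 5 the same values were 33.6, 14.1 and 2.00. The tumor library of gel 4 was above all 4 NF libraries and that of gel 5 below them. The log2 difference was -0.76 (SE 0.953, adjusted p = 0.534), turning to 3.70 (adjusted p = 0.0181) without gel 4 and to -1.81 (adjusted p = 0.0344) without gel 5.

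The next comparison asked how the members differed between NFs grown with tumor cells and NFs grown alone. In co-culture 6 members were lower, led by Dlk1 and H19, and Meg3 and Peg3 were higher, which left Rian and Cdkn1c without a call. Of all 15013 genes tested 22.9% were lower and 25.9% higher (48.8% in either direction), and the median log2 difference was -1.47 for the members and 0.02 for all genes. By parental copy, 4 paternally expressed members were lower and 1 was higher, and 2 maternally expressed members were lower and 1 was higher. Requiring a log2 difference beyond 2 as well left 3 calls, Dlk1, H19 and Mest.

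Other measured values moved with co-culture. The summed epithelial markers were higher, as given above, and of 3 pericyte markers Cspg4 was higher (59.7 to 175 CPM against 2.48 and 5.97 CPM), while Rgs5 went from 9.25 and 6.11 CPM to 1.88 to 6.22 CPM (adjusted p = 0.0625) and Kcnj8 did not pass. The summed fibroblast markers went from 70150 and 75820 CPM to 21700 to 41900 CPM, with 5 of the 10 lower and 2 (Twist2 and Thy1) higher. The sum over 5 endothelial markers was 1.37 and 4.91 CPM alone and 8.00 to 22.9 CPM in co-culture, with Emcn at 0 in all co-cultured NFs. For 5 leukocyte markers, mostly Cd68, the sums were 5.46 and 10.0 CPM alone and 31.4 to 62.6 CPM in co-culture, and 3 adipocyte markers went from 1.68 and 6.46 CPM to 0.353 to 0.748 CPM. Of the 10 proliferation genes 4 were lower in co-culture and none higher, among them Mki67 (9.79 against 28.6 CPM on average). The part of any of these in the members' values was not tested. Cdkn1c, Peg3, Plagl1 and Ndn had no count in the tumor cells of the same gels.

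In NFs alone H19 had 267 and 465 CPM, and the 4 co-cultured libraries ranged from 14.1 to 33.6 CPM. All 4 lay below both NFs grown alone, on average 16.3-fold, with a log2 difference of -4.09 (SE 0.339, adjusted p = 1.31e-05). Dlk1 was at 10.5 and 9.62 CPM alone and had 6, 9, 5 and 11 counts in co-culture, 0.288 to 0.778 CPM. Those values are close to the floor, and the difference was 20-fold on average (log2 -4.32, SE 0.343, adjusted p = 1.04e-05).

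Grb10 went from 442 and 333 CPM alone to 95.7 to 118 CPM in co-culture, 3.67-fold lower on average (log2 -1.82, SE 0.140, adjusted p = 8.61e-06). Mest went from 9.31 and 35.7 CPM to 2.42 to 5.16 CPM, 6.11-fold lower (log2 -2.39, SE 0.248, adjusted p = 5.22e-05). The co-cultured NFs held 5.91% to 28.3% of the Mest level of the tumor cells from their own gel, where the median over 10 epithelial markers was 2.01% to 5.03% (0.827% to 17.7% for single markers, the highest being Krt19). Ndn went from 55.9 and 83.0 CPM to 16.9 to 27.0 CPM, 3.30-fold lower (log2 -1.65, SE 0.179, adjusted p = 6.62e-05).

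For Plagl1 the values alone were 33.3 and 48.4 CPM. Beside tumor cells its CPM value fell to 24.9 and 26.5 for CD26- NFs, and to 12.7 and 8.77 for CD26+ NFs. All 4 were below the NFs alone, but the CD26- libraries by much less (log2 -1.29 over both subsets, SE 0.338, adjusted p = 0.0112).

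Meg3 moved the other way from its neighbour Dlk1. Its values were 389 and 440 CPM alone. Beside tumor cells CD26- NFs had 714 and 691.5 CPM and CD26+ NFs had 1055 and 918 CPM, a mean 2.04-fold higher (log2 1.05, SE 0.148, adjusted p = 0.000349). Peg3 was at 38.4 and 39.6 CPM alone and at 60.8, 64.3, 127 and 63.4 CPM in co-culture, 2.02-fold higher (log2 1.02, SE 0.254, adjusted p = 0.00837). For both genes every co-cultured library was above both libraries grown alone, and for Peg3 the CD26+ library of gel 4 (127 CPM) was far above the other 3.

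Rian, transcribed on the same strand downstream of Meg3, was at 245 and 230 CPM alone and at 219 to 283 CPM in co-culture. These ranges overlapped (log2 0.19, SE 0.151, adjusted p = 0.313). Cdkn1c had 6.64 and 16.2 CPM alone. Beside tumor cells its CPM value was 11.9 and 4.78 for CD26- NFs against 35.5 and 31.0 for CD26+ NFs, again with overlap (log2 0.74, SE 0.311, adjusted p = 0.074). Without gel 5, whose CD26- library was the lowest of all, the log2 difference of Cdkn1c was 1.00 (adjusted p = 0.012).

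**Figure D2:**
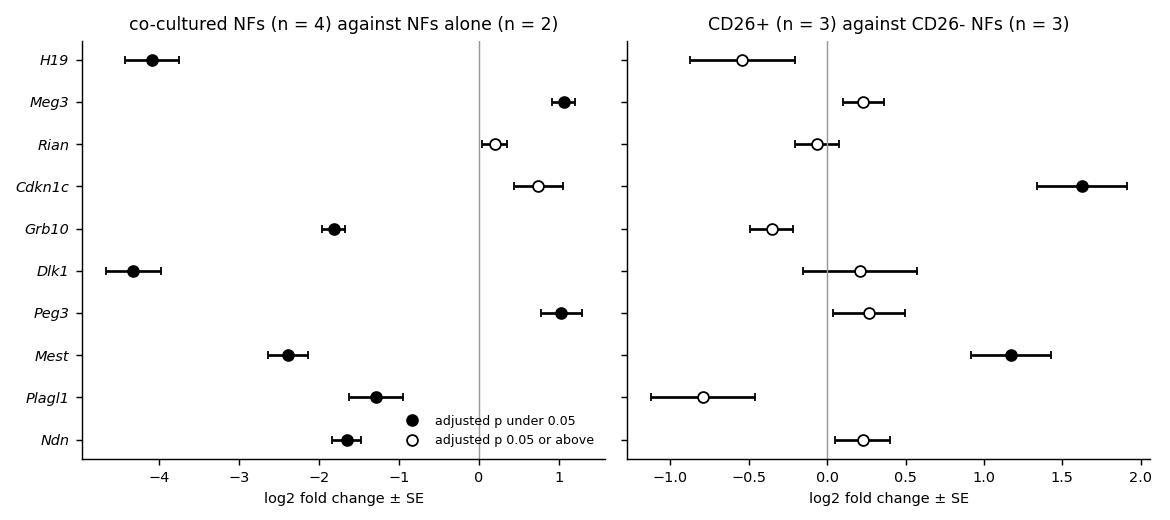
Log2 fold change from edgeR, with an SE worked back from its test, of the 10 members. Co-cultured NFs against NFs alone are on the left and CD26+ against CD26- NFs on the right. Points are filled where the adjusted p over all genes was under 0.05. On the left Dlk1 (-4.32) and H19 (-4.09) lie farthest from 0 and Meg3 (1.05) and Peg3 (1.02) on the other side, and on the right Cdkn1c (1.62) and Mest (1.17) are the filled points. The horizontal scales of the panels differ.

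Divided by exon length (GENCODE M21), so that genes can be compared, the order of the members in NFs changed with culture. In NFs alone H19 led at 149 CPM per kilobase of exon (108 to 189), rank 226 of 12896 genes at 1 CPM or more. Grb10 followed at 42.6, then Meg3 at 22.9, which overlapped Ndn at 18.8, and Rian at 13.0. Mest (5.71), Cdkn1c (5.61) and Plagl1 (5.22) overlapped each other. Peg3 (2.93) lay below Cdkn1c and Plagl1 in both libraries but inside the range of Mest (2.36 to 9.06), and Dlk1 (1.78) was lowest.

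In co-cultured NFs Meg3 led at 46.7 CPM per kilobase of exon (38.2 to 58.3), rank 865 of 13202, with no overlap with the next member. Rian (14.4), Grb10 (11.6), Cdkn1c (10.2), H19 (9.13), Peg3 (5.92) and Ndn (5.71) each overlapped the next in that order. Plagl1 (2.33) and Mest (0.934) overlapped at the lower end, and the wide range of Cdkn1c (2.34 to 17.4) reached down to that of Plagl1. Dlk1 was under 1 CPM and was not ranked. Rian was the member whose coordinates in the count table differed from GENCODE M21, so its exon length and place in both orders are less certain.

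**Figure D3:**
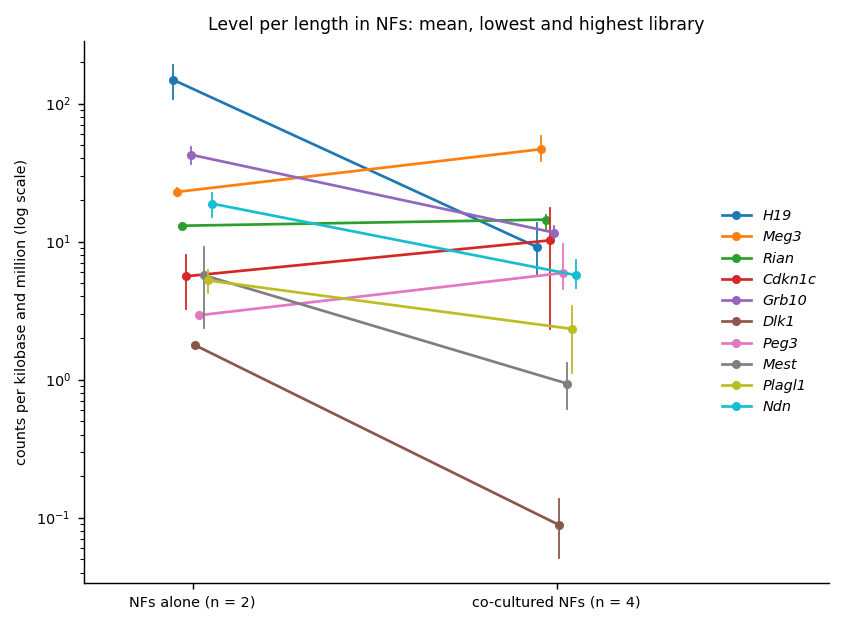
Level per exon length (RPKM on the axis, here CPM per kilobase of exon) of each member in NFs alone (n = 2) and in co-cultured NFs (n = 4), on a log scale, as mean (points) and lowest to highest library (vertical lines). H19 starts at the top (149) and ends below the means of Meg3, Rian, Grb10 and Cdkn1c (9.13), while Meg3 rises to the top (46.7) and Dlk1 stays lowest.

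CD26+ and CD26- NFs of the same gels were compared next. Cdkn1c and Mest were higher in CD26+ NFs and the other 8 members did not pass, so 2 of 10 were called where 7.53% of 15013 genes were. Cdkn1c was 2.44-fold higher in CD26+ NFs in gel 1 (16.2 against 6.64 CPM), 2.97-fold in gel 4 (35.5 against 11.9 CPM) and 6.5-fold in gel 5 (31.0 against 4.78 CPM). The 3 CD26+ libraries were all above the 3 CD26- libraries (log2 1.62, SE 0.286, adjusted p = 0.0131). Mest was 3.84-fold higher in gel 1, 1.63-fold in gel 4 and 2.14-fold in gel 5, so higher in each gel while the groups overlapped across culture (log2 1.17, SE 0.256, adjusted p = 0.0286).

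Single gels decided some of these calls. Without gel 5 neither member passed (Cdkn1c log2 1.30, adjusted p = 0.0949, and Mest log2 1.29, adjusted p = 0.224), and 17 genes in all were called. Without gel 1 Mest did not pass (log2 0.73, adjusted p = 0.212), Cdkn1c did (log2 1.84, adjusted p = 0.00404), and H19 (log2 -1.21, adjusted p = 0.00375) and Plagl1 (log2 -1.43, adjusted p = 0.00225) were lower in CD26+ NFs. In co-culture the CD26+ libraries also had higher epithelial marker sums (157 and 281 CPM) than the CD26- libraries (106 and 132 CPM). Over the gels the endothelial marker Kdr (log2 2.11, SE 0.409, adjusted p = 0.0191) and the pericyte marker Kcnj8 (log2 2.09, SE 0.527, adjusted p = 0.0436) were higher and the proliferation gene Mki67 (log2 -1.50, SE 0.259, adjusted p = 0.012) lower in CD26+ NFs. The more abundant pericyte marker Cspg4 did not pass over the gels. Beside tumor cells its CPM value was 59.7 and 72.8 for CD26+ NFs against 147.5 and 175 for CD26- NFs, and the pericyte sums there were 64.6 and 82.9 against 150 and 179 CPM. Cdkn1c and Plagl1 had no count in any tumor library. The part of these markers in the subset differences was not tested.

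The members without a call between subsets had log2 differences of -0.79 (Plagl1, SE 0.333, adjusted p = 0.177) to 0.27 (Peg3, SE 0.229, adjusted p = 0.514). Meg3 was higher in CD26+ NFs in each gel, by 1.13-, 1.48- and 1.33-fold (log2 0.23, SE 0.133, adjusted p = 0.318). Rian (log2 -0.06) and Dlk1 (log2 0.21) changed sign between gels, as did Grb10 (log2 -0.35) and Peg3, while Ndn was 1.49-, 1.14- and 1.28-fold higher in CD26+ NFs (log2 0.23, adjusted p = 0.471). Scaled to library totals instead of TMM, the median of all genes in this comparison moved to 0.16 and the value of Rian to 0.09.

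H19 and Plagl1 differed between the subsets in opposite directions alone and in co-culture. In gel 1 H19 was 1.74-fold higher in CD26+ than in CD26- NFs, and in gels 4 and 5 its ratio was 0.567 and 0.421. Plagl1 had ratios of 1.45 in gel 1 and of 0.508 and 0.330 in gels 4 and 5. Put as a difference with culture, H19 was 30.5- and 32.9-fold lower in co-cultured CD26+ NFs and 9.93- and 7.93-fold lower in co-cultured CD26- NFs. Plagl1 was 3.82- and 5.52-fold lower in CD26+ NFs and 1.34- and 1.26-fold lower in CD26- NFs.

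The interaction of subset and culture passed for these 2 members of 10, H19 with a log2 value of -1.88 (SE 0.318, adjusted p = 0.0221) and Plagl1 with -1.83 (SE 0.343, adjusted p = 0.0413), where 0.376% of 16231 genes were called. With the gel as a block the values were -1.86 and -1.84 (adjusted p = 1.22e-06 and 1.27e-06) and 395 genes in all were called in place of 61. That block fit leaves 1 degree of freedom, so its p-values rest on little information about the spread. Each subset has 1 library alone, so the value rests on a single CD26- and a single CD26+ library there, and the spread in the test comes from the co-cultured libraries. Without a co-cultured library the values stayed between -2.11 and -1.66, while the number of members called fell to 1 without CD26- NFs of gel 4 (H19) and to 0 without any one of the other 3. Neither passed without the expression filter (adjusted p = 0.0723 for H19 and 0.121 for Plagl1), and with a minimum of 1 CPM in 2 libraries H19 passed (0.035) and Plagl1 did not (0.0637). Of 3 pericyte markers Cspg4 was also called in the interaction (log2 -2.57, SE 0.405, adjusted p = 0.0144), at 2.48 CPM in CD26- and 5.97 CPM in CD26+ NFs alone. Rgs5 and Kcnj8 were not called and went the other way. For Rgs5 CD26- and CD26+ NFs had 9.25 and 6.11 CPM alone, 1.88 and 2.955 CPM in gel 4 and 3.74 and 6.22 CPM in gel 5. The same values for Kcnj8 were 0.559 and 1.33, 0.606 and 1.99, and 0.288 and 3.89 CPM. The part of these markers in the members' values was not tested. The remaining 8 members had adjusted p-values of 0.497 (Mest, log2 -1.07) or more.

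**Figure D4:**
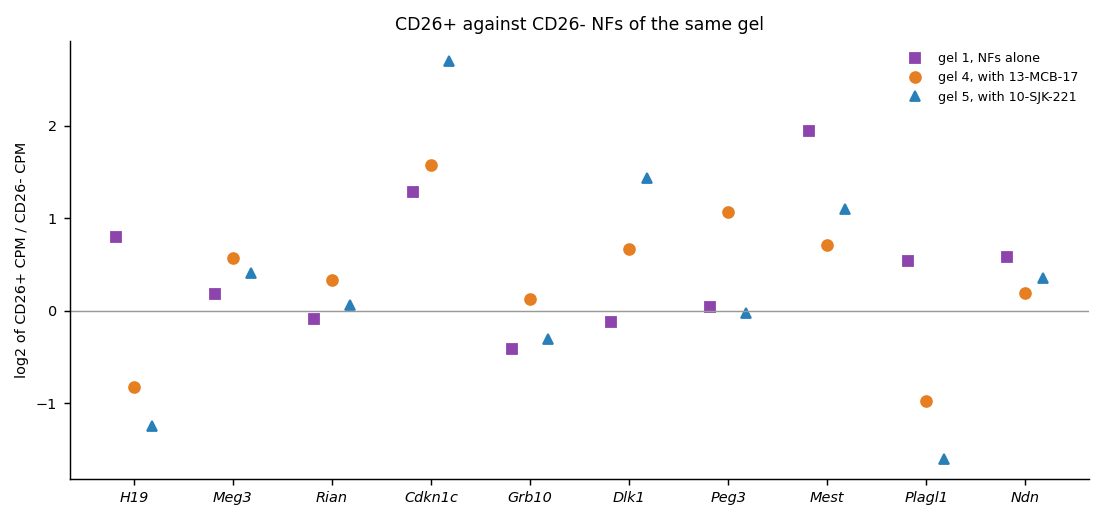
Log2 ratio of CD26+ to CD26- CPM of each member within each gel that holds both subsets (squares gel 1 without tumor cells, circles gel 4, triangles gel 5). H19 and Plagl1 lie above 0 in gel 1 (1.74- and 1.45-fold) and below 0 in both co-culture gels, while Cdkn1c, Mest, Meg3 and Ndn lie above 0 in all 3.

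NFs grown beside 10-SJK-221 were compared with NFs beside 13-MCB-17 to ask whether the line in the gel mattered. None of the 10 members passed in edgeR, nor did any of the 15013 genes (0%), with 947 genes at an unadjusted p under 0.05. DESeq2 called 19 genes and a fit without the expression filter 150, none of them a member. Ndn was the member whose groups did not overlap, at 21.2 and 27.0 CPM in gel 5 and 16.9 and 19.2 CPM in gel 4 (log2 0.47, SE 0.166, adjusted p = 0.709). The other members had log2 differences between -0.60 (Cdkn1c, SE 0.286) and 0.23 (H19, SE 0.403, and Rian, SE 0.162).

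In tumor cells, H19 and Mest had enough counts for a test, and H19 was higher and Mest lower in co-culture. Mest passed, where 22.3% of 13197 genes did. H19 passed too, but had no count in either line grown alone. It entered the test only through the co-cultured libraries, so its call adds no support. This fit had 4 libraries and terms for line and culture, which leaves 1 degree of freedom. Mest was at 45.1 CPM in 13-MCB-17 alone and 15.7 CPM beside NFs (34.7%), and at 83.5 and 40.9 CPM in 10-SJK-221 (49.0%). Each line was lower in co-culture, and 10-SJK-221 beside NFs stood just under 13-MCB-17 alone (log2 -1.29, SE 0.142, adjusted p = 0.000611). Without the line term the adjusted p was 0.35. With a tumor library left out the fit took in the NF libraries, whose spread was then assumed to hold for tumor cells too, and the adjusted p was 0.0581 without 13-MCB-17 alone and 0.0566 without 13-MCB-17 in co-culture. In co-cultured tumor cells 6 of the 10 proliferation genes were lower and 1 higher, and 4 of the 10 epithelial markers were lower. Of markers of other cell types Cd68 (80.5 and 34.8 against 299 and 93.1 CPM) and Kdr were lower and Csf1r was higher, as were 5 of 6 fibroblast markers tested. The part of these in the Mest value was not tested. Copg2 was at 129 and 143 CPM alone and 123 and 120 CPM in co-culture (log2 -0.18, SE 0.101, adjusted p = 0.234).

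H19 had no count in either line grown alone, 1398 counts (79.1 CPM) in 13-MCB-17 beside NFs and 35 counts (2.00 CPM) in 10-SJK-221 beside NFs. Against the floor that was at least 485-fold higher in 13-MCB-17 and at least 10.5-fold higher in 10-SJK-221 (edgeR adjusted p = 1.64e-05, DESeq2 adjusted p = 0.145, and 0.262 in edgeR without the line term). The 13-MCB-17 library held 3.76 times the mean H19 level of the NFs from its own gel, and the 10-SJK-221 library 0.0836 times.

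Fibroblast markers in the sorted tumor cells of the same gels were measured beside it. In gel 4 the 10 fibroblast markers stood at 0% to 29.8% of their mean NF level, with a median of 0.293%, Thy1 lowest and Col5a1 highest. In gel 5 they stood at 0.0396% to 12.8%, with a median of 0.173%. Col5a1 (380 and 137.5 CPM) and Pdgfra (67.7 and 35.6 CPM) were also present in tumor cells grown without NFs. Meg3, the most abundant member in those NFs, had 1 count in the 13-MCB-17 library in which H19 had 1398, and Cdkn1c, Peg3, Plagl1, Ndn and Dlk1 had none. Rian and Grb10 had 1 count each there. The source of the H19 counts in the tumor libraries was not tested.

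**Figure D5:**
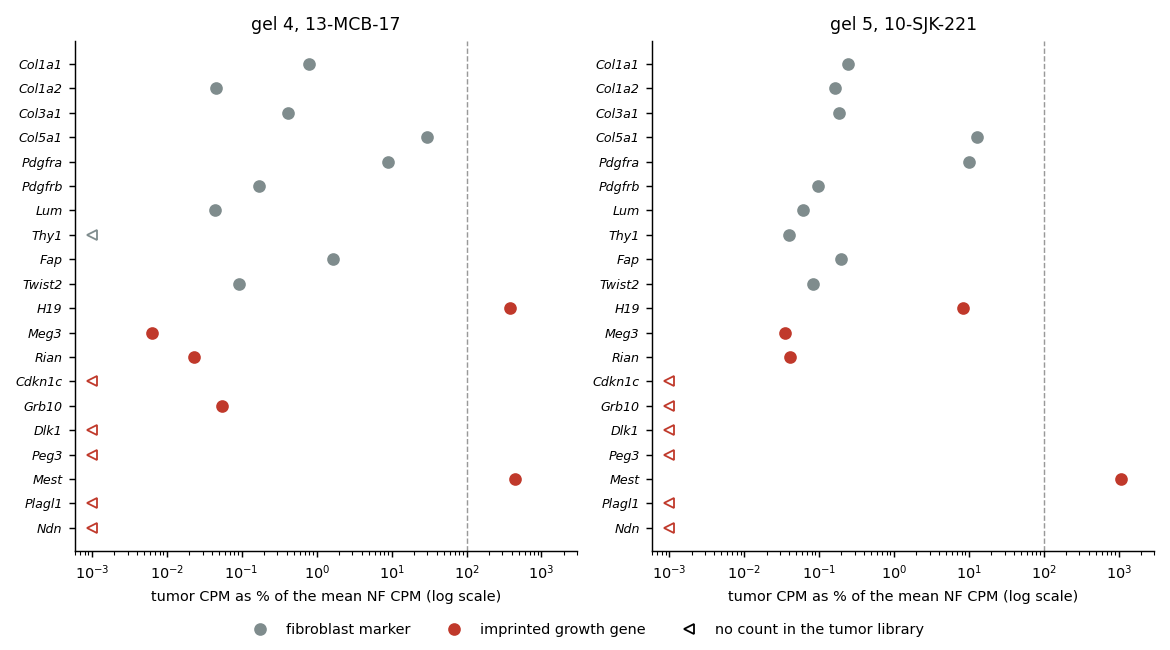
Level in the co-cultured tumor library as a percent of the mean of both NF libraries of the same gel, on a log scale, for 10 fibroblast markers (grey) and the 10 members (red), in gel 4 (left) and gel 5 (right). The dashed line is 100% and open triangles mark 0 counts. In gel 4 H19 and Mest lie to the right of the line, in gel 5 only Mest does, and the other 8 members lie at 0 or below most of the markers.

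Between the lines, Mest was higher in 10-SJK-221 than in 13-MCB-17 both alone (83.5 against 45.1 CPM) and beside NFs (40.9 against 15.7 CPM), with a log2 difference of 1.04 (SE 0.141, adjusted p = 0.00226). H19 was lower in 10-SJK-221 (log2 -5.36, SE 0.272, adjusted p = 6.51e-05, and DESeq2 adjusted p = 0.94). That value rests on the 2 co-cultured libraries, and without either of them it was 0.00. For Mest the log2 difference was then 0.81, the difference of the lines grown alone, with an adjusted p of 0.144 or 0.15 that takes its spread from the NF libraries. Mest passed, where 14.5% of 13197 genes did. H19 passed too, but it entered the test only through the co-cultured libraries, so its call adds no support. All 10 proliferation genes were also higher in 10-SJK-221. Of the markers, Cd68 was lower, Grhl2 and Krt8 were higher and Cldn4 lower, and of 6 fibroblast markers tested 1 was higher and 4 were lower. The part of these was not tested.

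Neighbours of the members showed how far each cluster moved together. In the chromosome 12 cluster Mirg, a noncoding host of miRNAs downstream of Rian, had 8.07 and 15.4 CPM alone and ranged from 11.3 to 23.6 CPM beside tumor cells (log2 0.57, SE 0.210, adjusted p = 0.0456), with 3 counts in all over the tumor libraries. Dio3, which encodes a thyroid hormone deiodinase and is preferentially expressed from the paternal copy, went from 64.3 and 15.2 CPM to 1.16 to 3.17 CPM (log2 -3.80, SE 0.280, adjusted p = 6.7e-06). Begain, a coding gene at the Dlk1 end, was also lower (log2 -1.36, SE 0.351, adjusted p = 0.0101). Thus the noncoding Meg3 and Mirg were higher, the coding Dlk1, Dio3 and Begain lower, and Rian without a call. Rtl1, an imprinted gene between Meg3 and Rian, did not exceed 0.211 CPM in any library.

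Igf2, the growth factor gene that shares its control region with H19, had 1 and 13 counts in NFs alone, 0 to 4 counts in co-cultured NFs and none in tumor cells. Other genes, mostly Gm49394 on the same strand, cover 64.5% of the exonic bases of Igf2, so these counts may leave out reads of Igf2. Kcnq1ot1, the paternally expressed noncoding RNA of the Cdkn1c cluster, was at 13.9 to 27.3 CPM in NFs and 2.57 to 4.98 CPM in tumor cells (log2 2.42, SE 0.400, adjusted p = 0.00115 for cells grown alone), with no call for culture (log2 0.18, adjusted p = 0.603) or subset (log2 0.01, adjusted p = 0.981) in NFs. Phlda2, a maternally expressed placental growth regulator of that cluster, had no count in NFs alone and stood at 6.46 and 12.6 CPM in tumor cells grown alone.

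Over all 31 neighbours of the list used, 19 were tested in NFs for culture, of which 7 were higher and 3 lower, where 48.8% of all genes were called. For subset 1 was higher (Slc22a18) and 1 lower (Dio3), against 7.53% of all genes. Of 22 tested between NFs and tumor cells grown alone, 6 were higher in NFs and 9 lower, with a median log2 difference of -0.16, and in shared gels 7 were higher and 7 lower, against 55.5% and 51.8% of all genes called. In the tumor cells 14 were tested, of which 2 were higher and 3 lower in co-culture (22.3% of all genes called) and 1 (Kcnq1) higher in 10-SJK-221 (14.5%).

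Of 21 further imprinted genes not among those neighbours, 20 were tested in NFs. Between cells grown alone 9 were higher in NFs and 2 lower, led by Peg10 (155 CPM in NFs alone and no count in tumor cells alone), and in shared gels 12 were higher and 2 lower, where 55.5% and 51.8% of all genes were called. With culture 8 were higher in co-cultured NFs and 4 lower (25.9% and 22.9% of all genes), the largest rises being those of Sfmbt2 (62.9 against 2.82 CPM, log2 4.59, SE 0.30) and Nnat (9.44 against 0.719 CPM, log2 3.72, SE 0.42). Peg10, a gene derived from a retrotransposon, was lower in co-culture (log2 -1.65, SE 0.125, adjusted p = 7.78e-06) and higher in CD26+ NFs (log2 0.67, SE 0.123, adjusted p = 0.0153). Sfmbt2 stood at 87.2 and 91.0 CPM in tumor cells grown alone, and Nnat at 0.652 and 0.954 CPM. In the tumor cells 2 of 14 were higher in co-culture (Igf2r and H13) and none lower, where 22.3% of all genes were called.

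Of 8 partners of the members on the insulin and IGF axis, 4 were higher and 2 lower with culture in NFs, where 48.8% of all genes were called, and Irs2 and Igf2bp3 did not pass. Igf1 went from 2106 and 1029 CPM alone to 13.9 to 31.8 CPM in co-culture (log2 -6.10, SE 0.36, adjusted p = 1.94e-06), and Igf2bp1, whose protein binds Igf2 RNA, from 0.124 and 2.04 CPM to 3.15 to 13.6 CPM. Between subsets 3 of the 8 were called, Igf2bp1 and Igf2bp3 higher and Insr lower in CD26+ NFs, where 7.53% of all genes were called. In the tumor libraries Igf2bp1 stood at 69.8 to 102 CPM and Igf2bp3 at 29.5 to 34.1 CPM, and the epithelial marker sums were also higher in co-cultured and in CD26+ NFs. The part of tumor RNA in these NF values was not tested. Igf1, where the interaction passed (log2 1.83, SE 0.36, adjusted p = 0.0499), was lower in co-culture in both subsets.

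Relatives of the members that are not imprinted were followed as well. Of 8 tested, 4 were higher and 2 lower with culture in NFs, against 48.8% of all genes called. Cdkn1a, like Cdkn1c an inhibitor of cyclin-dependent kinases, had 277 and 714 CPM in NFs alone and ranged from 407 to 798.5 CPM beside tumor cells, and was higher in CD26+ NFs in every gel (log2 0.81, SE 0.165, adjusted p = 0.0221). Unlike Cdkn1c it was also present in all 4 tumor libraries, at 400 to 648 CPM. Grb14, of the Grb10 family, was lower in co-cultured NFs (5.74 against 39.6 CPM, log2 -3.04, SE 0.38). Grb7, of the same family, was at 16.8 to 22.0 CPM in the tumor cells, where Grb10 had at most 1 count. With culture 48.8% and with subset 7.53% of all genes were called. Of 15 genes that set, keep or erase imprints, 3 were called with culture (Suz12 and Tet2 higher, Ctcf lower) and none with subset. Between NFs and tumor cells grown alone, where 55.5% of all genes were called, 8 of them were lower in NFs, among them Uhrf1 (11.1 against 88.8 CPM), and 3 higher, among them Dnmt3l (7.03 against 0.199 CPM) and Tet1 (9.61 against 0.544 CPM).

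Genes with profiles most like each member were found by the root mean square difference of centred log2(CPM + 0.5) values over the 10 libraries, among 13490 genes. The points share libraries and gels, and this is a description. Nearest to Meg3 were Thy1 (0.405), Serpine2 (0.438) and Mrc2 (0.440), and to Rian Fkbp10 (0.242), Hexa (0.298) and Epb41l3 (0.314). Grb10 had Adam23 (0.248) as its nearest gene, Ndn had Cebpa (0.251), Peg3 had Olfm1 (0.279), Dlk1 had Wfdc17 (0.286), Cdkn1c had Pde11a (0.331) and Plagl1 had Plce1 (0.343). Mest (Sybu, 0.472) was farther from its nearest gene, and H19 was farthest from any, with Ggt5 at 1.34. Among the members themselves Ndn and Plagl1 were closest to each other, at 0.597, and the neighbours Meg3 and Rian stood at 0.766.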

How the data were processed

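RNA-seq was measured in 10 libraries. Per the labels and the study's methods, poly(A) RNA was made into stranded libraries and read in pairs. The deposited table holds the authors' raw counts per gene, not normalized, and the submitters' processing notes name HISAT2 2.2.1 and GRCm38. The counting program, its strand setting and its annotation are not given in the sources used here. The row without a gene ID held 0 counts. Of the gene IDs 99.53% were in GENCODE M21, used for exon lengths.

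Groups followed the labels. CPM were scaled to the library total. Tests were edgeR's quasi-likelihood test (version 4.0.16, under R 4.3.3) with TMM scaling, the filterByExpr filter and Benjamini-Hochberg adjustment over all genes tested and a threshold of 0.05. Each SE was worked back as the absolute log2 fold change over the square root of the test's F statistic. The comparisons of NFs with tumor cells were fitted over all libraries, with each group a term. The others were fitted on NFs (subset and culture, and subset and gel for the line) or on tumor cells (line and culture), with scripts first tested on simulated data. DESeq2 1.42.0, other scalings and filters, the study's criterion of an absolute log2 fold change above 2, and fits without single gels or libraries were the alternatives.

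The labels give each gel a number, so equal numbers mark a shared gel. Deviations from the group means correlated between CD26- and CD26+ NFs of a gel (r = 0.123 over 16838 genes), between CD26- NFs and tumor cells (r = 0.119) and less between CD26+ NFs and tumor cells (r = 0.0711). The fit with the gel as a block was an alternative, since the study's methods name none.

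All members were named whatever their p. From each gene list, at most the 3 genes with the largest change among those called and at a mean of 1 CPM or more were named per comparison, plus Igf2, Kcnq1ot1, Mirg and Rtl1. Copg2, Cdkn1a, Grb7, Phlda2, Begain, Kdr, Kcnj8 and other list or marker genes named beyond this rule were chosen after their values were seen. The members and lists were chosen with earlier results of these data known. With 14142334 to 18408940 counts per library, 3 counts were taken as the floor. Floors and intervals cover counting error only, since reads carried no molecular identifiers. Part of the tumor lines' genotype is not reported here.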

Additional observations from a re-analysis of the deposited data

Results flagged for a closer look

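For 2 members the test of the interaction of subset and culture in NFs passed. Each subset had 1 library alone, from 1 gel, so the subset difference without tumor cells had no replicate and the spread in the test came from the co-cultured libraries, taken to hold for the NFs alone too. For H19 the interaction was -1.88 on the log2 scale (edgeR adjusted p = 0.0221), with lower values in co-culture in all 4 co-cultured libraries and the larger difference in both CD26+ libraries. For Plagl1 it was -1.83 (adjusted p = 0.0413), again with all 4 co-cultured libraries lower and the larger difference in both CD26+ libraries. Without the expression filter neither passed (adjusted p = 0.0723 for H19 and 0.121 for Plagl1), and with a minimum of 1 CPM in 2 libraries Plagl1 did not (0.0637). Of 3 pericyte markers Cspg4 was also called in the interaction (-2.57, adjusted p = 0.0144), while Rgs5 and Kcnj8 were not called and went the other way. The part of these markers in the values of H19 and Plagl1 was not tested. Neither value passed without the CD26+ library of gel 4 or of gel 5, or without the CD26- library of gel 5.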

How the results depend on the processing

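The number of members called stayed within 1.5 times the reported number in 65 of 85 settings. Requiring a log2 fold change above 2 left 0 members for subset, 3 for culture in NFs, 0 for the interaction and 1 each for culture and line in tumor cells. For the interaction, 0 were called without the expression filter and 1 with at least 1 CPM in 2 libraries. DESeq2 called 1 for culture and 1 for line in tumor cells, and leaving out the line or the culture term gave 0. Leaving out 1 gel or library gave 9 to 10 members for NFs against tumor cells alone, 8 to 9 in shared gels, 0 to 3 for subset, 8 to 9 for culture in NFs, 0 to 1 for the interaction, 0 to 0 for NFs by line, 1 to 2 for culture and 0 to 2 for line in tumor cells. With a tumor library left out, the spread in the tumor cell fits came from the NF libraries. With gel as a replicate block 2 members were called for subset and 2 for the interaction, and 8 in shared gels, where Dlk1 was not among the genes tested. It changed no other call. No block could be fitted for culture in NFs or for cells grown alone, which share no gel.

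Leaving out 1 gel or library turned the sign of H19 in shared gels (3.70 without gel 4, -1.81 without gel 5) and of members without a call. For subset the ranges were -0.04 to 0.13 for Dlk1 and -0.13 to 0.44 for Peg3, and -0.16 to 0.01 for Rian, which was 0.01 with co-culture gels only and 0.09 with library totals. For the interaction Peg3 ranged from -0.05 to 0.88. For NFs by line the ranges were -0.56 to 0.79 for H19, -0.20 to 0.08 for Meg3, -0.54 to 0.72 for Dlk1, -0.93 to 0.13 for Peg3, -0.38 to 0.50 for Mest, -0.94 to 0.52 for Plagl1 and -0.16 to 0.34 for Grb10. H19 by tumor line ranged from -5.34 to 0.00, the latter without either co-cultured library. The cause of these changes was not tested.

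With library totals the median log2 value of all genes was 0.16 for subset, -0.13 in shared gels and -0.10 for cells grown alone. In shared gels it was 0.12 with RLE, 0.12 with DESeq2 and 0.14 without the filter. For culture in NFs it was 0.20 without the filter. Over all genes, the criterion above 2 cut the calls for subset from 1130 to 192, for culture in NFs from 7325 to 2047, and in tumor cells from 2942 to 418 for culture and from 1910 to 278 for line. The depth limits Dlk1 in co-cultured NFs and every member near 0 in tumor cells to bounds.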
